A study of Mus musculus with 6 samples.

Results

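The immunity-related GTPases (IRGs) and guanylate-binding proteins (GBPs) examined here were Igtp, Iigp1, Irgm1, Irgm2, Ifi47, Gbp2 and Gbp3. They were chosen by name, as the probe sets of the deposited array table whose gene symbol is 1 of these 7 genes and no other. The choice was made with earlier results of these data known. That gave 9 of the 22690 probe sets on the array and 7 of the 13213 genes that could be tested. The values came from 6 arrays of mOS482, a mouse osteosarcoma line that grew from a spontaneous tumour lacking both Rb and p53. The 3 plates of the control group stably carried a scrambled hairpin, and the 3 plates of the other group a hairpin against Sox2, a transcription factor of stem cells. All plates were kept in hygromycin at 200 µg/ml and grown to near confluence, and 100 ng of RNA from each was labelled for an Affymetrix mouse 430A 2.0 array. Each hairpin was represented by 1 infected line, so a p-value here measures the spread between plates and arrays.

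IRGs and GBPs are large GTPases of cell-autonomous immunity that interferons induce in many cell types, and they act on the vacuoles in which parasites and bacteria live. In the mouse, Igtp (also called Irgm3), Irgm1 and Irgm2 are regulators that sit on the cell's own membranes and keep effector IRGs inactive. Iigp1 (Irga6) and Ifi47 (Irgd) are effectors that load onto the pathogen vacuole, where GBPs such as Gbp2 also gather. Interferon gamma acts through GAS elements in the DNA, and type I interferons act through a complex that holds STAT2 and IRF9 and binds interferon-stimulated response elements (ISREs).

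The sequences in front of the genes are shown because such elements are the known route of induction. RefSeq promoter windows of mouse build GRCm38.p6, from 250 bases before to 50 bases after the transcript start, were read for 6 of the 7 genes. The window of Iigp1 was not used here. The motifs searched, on both strands, were an ISRE-like GAAANNGAAA (TTTCNNTTTC on the other strand) and a GAS-like TTCNNNGAA, whose reverse complement reads the same. Each line below is the 100 bases directly before the start, 5′ to 3′ along the gene, with every match in capitals.
Igtp, chr11:58199456-58199555, plus strand: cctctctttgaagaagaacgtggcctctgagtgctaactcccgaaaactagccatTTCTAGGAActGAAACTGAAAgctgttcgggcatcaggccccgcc
Irgm2, chr11:58214877-58214976, plus strand: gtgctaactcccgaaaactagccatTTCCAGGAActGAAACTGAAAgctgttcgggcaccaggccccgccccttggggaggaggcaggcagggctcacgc
Irgm1, chr11:48871421-48871520, minus strand: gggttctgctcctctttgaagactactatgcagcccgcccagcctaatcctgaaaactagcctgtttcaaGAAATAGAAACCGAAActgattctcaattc
Ifi47, chr11:49076487-49076586, plus strand: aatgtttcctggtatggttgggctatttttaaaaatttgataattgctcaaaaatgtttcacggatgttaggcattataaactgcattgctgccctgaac
Gbp3, chr3:142559944-142560043, plus strand: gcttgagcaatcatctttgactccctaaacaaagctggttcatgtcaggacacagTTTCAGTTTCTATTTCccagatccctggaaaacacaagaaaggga
Gbp2, chr3:142620563-142620662, plus strand: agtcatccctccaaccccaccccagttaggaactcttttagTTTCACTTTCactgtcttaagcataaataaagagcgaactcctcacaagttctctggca

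An ISRE-like match was present in 5 of the 6 genes read, all but Ifi47, against 3.44% of 32851 promoter windows of the same length. A GAS-like match was present in 2 of the 6, Igtp and Irgm2, against 8.30% of windows. Both motifs stood together in 0.454% of all windows. The ISRE-like match began 34 bases before the start in Igtp, 64 in Irgm2 and 59 in Gbp2. In Irgm1 a pair of overlapping matches began 30 and 24 bases before the start, and in Gbp3 another overlapping pair began at 45 and 39 bases. Gbp3 has another start in the RefSeq table, and the window of that start held no match. The GAS-like matches of Igtp and Irgm2 began at 45 and 75 bases, each ending shortly before the ISRE-like match. The Igtp and Irgm2 windows were close copies, with 247 of 271 aligned columns identical (91.1%) and a longest shared run of 61 bases. In every other pair of the 6 genes the longest shared run was 7 to 11 bases. A match describes letters in the window, and no binding was measured.

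All 7 genes rose on the arrays labelled Sox2 shRNA, by 2.70-fold to 12.2-fold. The gene with the largest rise was Gbp3 and the smallest was that of Irgm1. Differences are Sox2 shRNA minus scrambled on the log2 scale, tested with limma and adjusted over all 13213 genes by the Benjamini-Hochberg method. The median difference of the 7 was 1.68, against 0.078 over all genes. Of all genes tested, 16.8% were called higher and 21.8% lower at an adjusted p under 0.05, and 2.68% were called higher with at least a 2-fold difference. All 7 members passed the last of these criteria too. In all 7 the 3 Sox2 shRNA arrays lay above the 3 scrambled arrays, as they did in 29.3% of all genes.

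**Figure D1:**
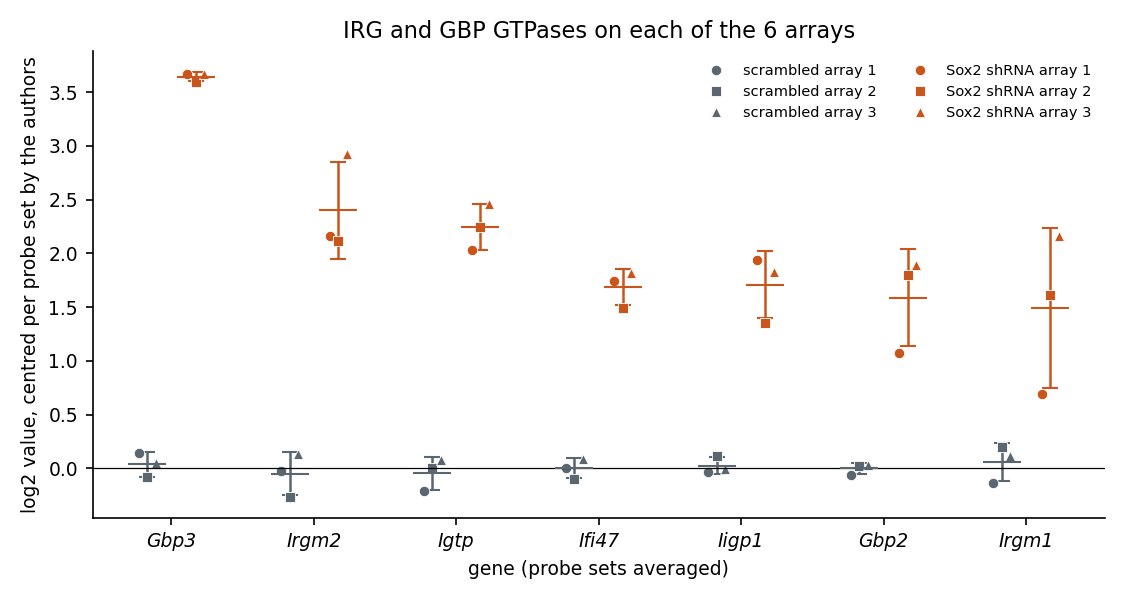
Log2 value (y axis, centred near the scrambled arrays) of the 7 IRG and GBP genes on each array, 3 scrambled (grey) and 3 Sox2 shRNA (orange), with the mean and SD of each group. Every Sox2 shRNA point lies above every scrambled point of its gene, with Gbp3 highest, at 3.59 to 3.67.

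Among the regulatory IRGs, Igtp measured -0.22, 0 and 0.074 on scrambled arrays 1 to 3 and 2.03, 2.24 and 2.46 on Sox2 shRNA arrays 1 to 3. The groups were far apart, with a difference of 2.29 ± 0.13 (SE, n = 3 per group), or 4.89-fold (limma adjusted p = 2.0e-05). Irgm2 measured -0.022, -0.26 and 0.14 on the scrambled arrays and 2.16, 2.11 and 2.92 on the Sox2 shRNA arrays. Its array 3 was higher than the other two of its group, and the difference was 2.45 ± 0.22, or 5.47-fold (limma adjusted p = 1.6e-04). Irgm1, the regulator whose loss in mice weakens resistance to several intracellular bacteria, measured -0.14, 0.20 and 0.11 against 0.69, 1.61 and 2.16. It was the least even member across the Sox2 shRNA plates, and array 1 lay only 0.49 above the highest scrambled array. Its difference was 1.43 ± 0.33, with a 95% interval of 0.68 to 2.18 (limma adjusted p = 0.0108).

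Of the effector IRGs, Ifi47 measured 0.0036, -0.096 and 0.088 on the scrambled arrays and 1.74, 1.496 and 1.82 on the Sox2 shRNA arrays. The difference was 1.68 ± 0.11, or 3.21-fold, with a tight spread in both groups (limma adjusted p = 3.5e-05). Iigp1, an effector known to break open the vacuole of Toxoplasma in mouse cells, measured -0.034, 0.11 and -0.0040 against 1.94, 1.35 and 1.83. Its mean rise was as large as that of Ifi47, at 1.68 ± 0.15 (limma adjusted p = 1.7e-04), though here array 2 was the lowest of the Sox2 shRNA group.

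Of the GBPs, Gbp3 measured 0.15, -0.081 and 0.045 on the scrambled arrays and 3.67, 3.59 and 3.67 on the Sox2 shRNA arrays. The difference was 3.61 ± 0.090, or 12.2-fold with a 95% interval of 10.5 to 14.1 (limma adjusted p = 3.5e-07). This was the 24th largest rise of all genes, and the 3 Sox2 shRNA plates gave nearly the same value. Gbp2, a GBP anchored to membranes by a lipid group, measured -0.061, 0.024 and 0.032 against 1.07, 1.80 and 1.89. Array 1 was again the low one, as in Irgm1, and the difference was 1.59 ± 0.20, or 3.01-fold (limma adjusted p = 7.4e-04).

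The measured rises of the members were not equal. Gbp3 exceeded the next gene, Irgm2, by 1.16 (combined SE 0.24, from the SEs of both genes), and it was the highest member on all 3 Sox2 shRNA arrays. Igtp exceeded Ifi47 by 0.61 (combined SE 0.17), also on all 3. The other neighbours in the order differed by 0.0020 to 0.16, each less than its combined SE of 0.19 to 0.38. The lowest member was a different gene on each Sox2 shRNA array, Irgm1 on array 1, Iigp1 on array 2 and Ifi47 on array 3. These are comparisons of differences, since centring removed the levels. The SEs cover the spread between arrays and not the response of each probe set. The combined SEs also treat the genes of a pair as independent, although both were read on the same arrays. As the probe sets of Iigp1 alone differed by 1.10 and 2.27, whether the genes changed by different amounts was not tested. The median of the 7 was 1.94, 1.80 and 2.16 on Sox2 shRNA arrays 1 to 3. The SD between Sox2 shRNA arrays had a median of 0.31 over the members and 0.16 over all genes. The corresponding SDs between scrambled arrays were 0.11 and 0.074.

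Gbp2 and Iigp1 had 2 probe sets each, and those of 1 gene are readings of the same transcripts, not replicates. Each of the 9 probe sets was called higher by at least 1 log2 unit, with no overlap between groups. Over the 21556 probe sets tested, 14.6% were called higher, 2.76% were called higher by at least 1, and 26.5% had no overlap in that direction. For Gbp2, probe set 1435906_x_at differed by 1.90 ± 0.14 (limma adjusted p = 8.9e-05). The other, 1418240_at, differed by 1.28 ± 0.27 (limma adjusted p = 0.0091), with 0.54, 1.62 and 1.64 on the Sox2 shRNA arrays. The low Gbp2 value of array 1 was thus carried mostly by 1418240_at, since 1435906_x_at read 1.60, 1.98 and 2.14. Names ending in _x_at mark probes that may also bind related transcripts, and the GBPs are a family of close copies, so how much of this reading belongs to Gbp2 was not tested.

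For Iigp1, probe set 1419042_at was steady, at 0.98, 1.28 and 0.996 on the Sox2 shRNA arrays, and differed by 1.10 ± 0.11 (limma adjusted p = 3.6e-04). Probe set 1419043_a_at read 2.89, 1.42 and 2.66 and differed by 2.27 ± 0.34 (limma adjusted p = 0.0019). The low Iigp1 value of array 2 came from 1419043_a_at alone. The relative Iigp1b, a separate gene chosen for mention after its value was seen, had a probe set of its own that differed by 0.12 ± 0.077 (limma adjusted p = 0.238). The deposited table places the Iigp1 probe sets on chromosome 18, those of Irgm1, Ifi47, Igtp and Irgm2 on chromosome 11 and those of Gbp2 and Gbp3 on chromosome 3, in a genome build that is not stated.

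**Figure D2:**
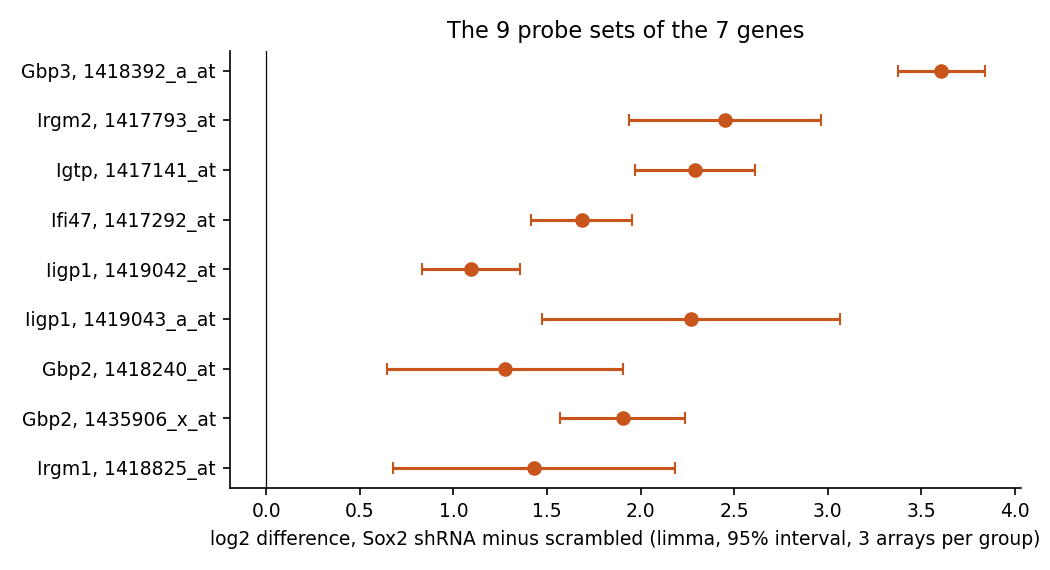
Log2 difference, Sox2 shRNA minus scrambled (x axis), of the 9 probe sets of the 7 genes, with bars for the 95% interval of limma. All 9 lie above 1, from 1.10 for 1419042_at of Iigp1 to 3.61 for Gbp3, and the pairs for Iigp1 and Gbp2 differ in size.

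Some properties of the arrays moved with the groups. The Sox2 probe set itself was not called, at 0.27 ± 0.14 (limma adjusted p = 0.154), so directions are given for arrays labelled Sox2 shRNA. Its 3 values in that group were 0.17, 0.055 and 0.58, and its signal over background is unknown. Spike-in controls are RNA added at set amounts during array processing. The 18 hybridisation control probe sets averaged 0.24, -0.13 and -0.22 on the scrambled arrays and 1.26, 0.58 and 0.56 on the Sox2 shRNA arrays, a difference of 0.84. The 27 poly-A control probe sets differed by 0.17. Sox2 shRNA array 1 was the highest for both kinds of control. Among the members it was the lowest of its group for Irgm1, Gbp2 and Igtp, the highest for Iigp1 and in between for the others. Each difference, and that of 0.44 over all 45, had an exact two-sided permutation p of 0.1, the smallest possible with 3 arrays against 3. The spike-in mean was at most 0.105 on scrambled and at least 0.27 on Sox2 shRNA arrays. As a covariate it thus overlaps with the groups, and a call can be lost to a wider SE alone. With the spike-in mean as a covariate all 7 members stayed called, at 1.44 for Iigp1 to 3.52 for Gbp3, and Irgm1 rose from 1.43 to 2.71. Under the same covariate 1419043_a_at of Iigp1 was no longer called (1.64, limma adjusted p = 0.124), and 1418240_at of Gbp2 moved from 1.28 to 2.32. The single probe set of Irgm1 also lost its call without scrambled array 1 (1.33, limma adjusted p = 0.0511).

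Markers of cell types were read as well, to be set beside the 16.8% of all genes called higher and 21.8% called lower. Of 8 measured osteoblast and mesenchyme markers 2 were called higher and 1 lower, with a median difference of -0.033. Col1a1, which encodes a chain of type I collagen, measured 0.014, 0.051 and 0.040 on the scrambled arrays and 3.38, 3.62 and 3.65 on the Sox2 shRNA arrays. Its rise of 3.52 ± 0.096 (limma adjusted p = 4.7e-07) was about as large as that of Gbp3. Alpl, the alkaline phosphatase of bone, rose by 0.99 ± 0.12 (limma adjusted p = 5.2e-04), and Col1a2, which encodes the other chain, was called lower at -0.42. The means of this list were -0.042 to 0.056 on scrambled and 0.41 to 0.52 on Sox2 shRNA arrays, a shift carried mostly by Col1a1. Of 10 macrophage markers Csf1r (0.76) and Adgre1 (0.36) were called higher and Cd14 (-0.83) lower, with list means of -0.041 to 0.048 on scrambled and 0.077 to 0.17 on Sox2 shRNA arrays. Of 10 lymphocyte markers Cd4 (0.46) was called higher, with list means of -0.053 to 0.078 and 0.16 to 0.32. None of 6 endothelial markers was called, with list means of -0.049 to 0.036 and 0.090 to 0.38.

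Several of these marker counts rested on single arrays. Adgre1 and Col1a2 lost their calls without scrambled array 1, 2 or 3, and the mesenchyme markers called lower were 2 without Sox2 shRNA array 1. The macrophage markers called lower were 2 without Sox2 shRNA array 2. The lymphocyte markers called higher were 2 without Sox2 shRNA array 2 and 3 without Sox2 shRNA array 3, and 1 endothelial marker was called higher when either of these arrays was left out. Whether any marker was present could not be read, since centring removed the levels, and the part of these shifts in the rise of the GTPases was not tested. In a culture read as a whole, more cells with the transcripts and more transcript per cell cannot be told apart.

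**Figure D3:**
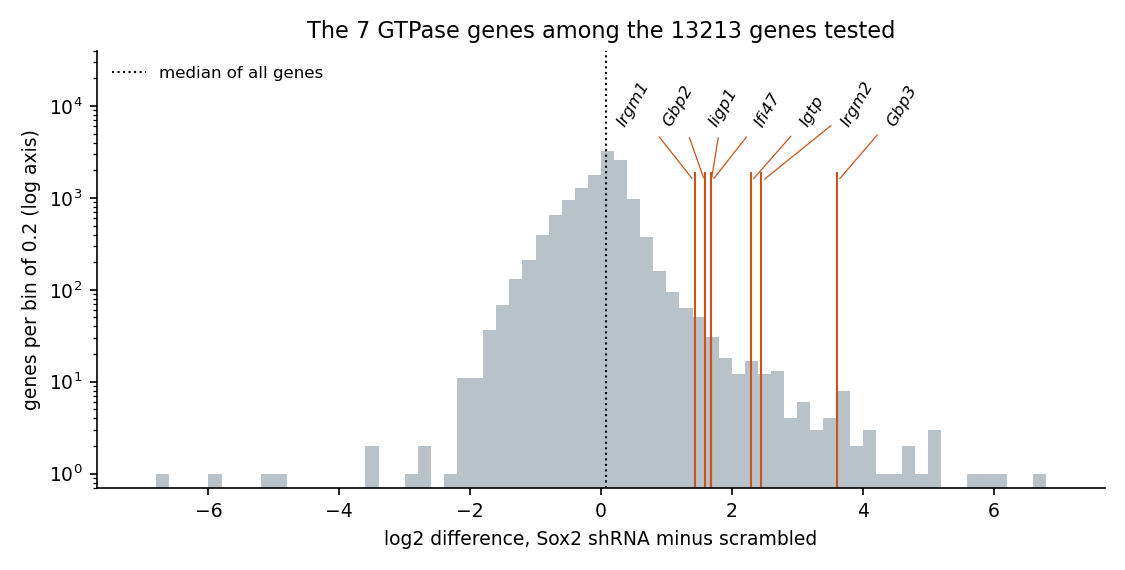
Number of genes per bin (y axis, log scale) by log2 difference, Sox2 shRNA minus scrambled (x axis), over all 13213 genes, with the 7 IRG and GBP genes marked. The members lie between 1.43 and 3.61 and the median of all genes is 0.078.

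Among the other interferon-inducible GTPases that were listed and measured, differences ran from 0.14 to 2.87. Of 20 genes listed, 6 had a probe set of their own, of which 4 were called higher and 0 lower, with a median of 0.68. Of all genes, 16.8% were called higher and 21.8% lower. The list did not hold Iigp1b, described above, which differed by 0.12 and was not called. Gbp7, another GBP, measured 0.14, -0.096 and 0.014 on the scrambled arrays and 3.03, 2.45 and 3.20 on the Sox2 shRNA arrays, a difference of 2.87 ± 0.19 (limma adjusted p = 3.5e-05). Gbp2b measured 0.083, -0.31 and 0.0029 against 1.82, 1.28 and 0.85, and rose by 1.39 ± 0.23 (limma adjusted p = 0.0027). Gbp2b was highest on array 1, where Gbp2, Irgm1 and Igtp were lowest and Iigp1 was highest. The antiviral Mx2, a relative of the dynamins, rose by 0.66 ± 0.11 (limma adjusted p = 0.0034), and Gbp6 by 0.71 ± 0.21 (limma adjusted p = 0.032). Mx1 (0.25 ± 0.089) and Gbp8 (0.14 ± 0.087) were not called.

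When the spike-in mean was a covariate, Gbp2b (0.57, limma adjusted p = 0.158) and Gbp6 (1.09, limma adjusted p = 0.0804) lost their calls. Gbp6 also lost its call without scrambled array 2, scrambled array 3 or Sox2 shRNA array 2 (limma adjusted p = 0.0991, 0.111 and 0.0571), and Mx1 gained one without Sox2 shRNA array 2 (0.31, limma adjusted p = 0.0416). Gbp7 and Gbp2b were also read for the motifs, while Gbp6, Gbp8, Mx1 and Mx2 had no promoter window to read. The Gbp7 window held an ISRE-like match 53 bases before the start and GAS-like matches at 106 and 87, and the Gbp2b window held an ISRE-like match at 137. Another 2 probe sets of the family each name several genes, Tgtp1 with Tgtp2 and Gbp4 with Gbp8, and were left out. Among GTPases of the related dynamin group, which shape cell membranes, 9 dynamins, mitofusins and atlastins were measured. Of these Dnm1 was called higher (0.50) and Atl2 lower (-0.38), beside 16.8% and 21.8% of all genes, and the median was -0.0003. Under the spike-in covariate both calls were lost (limma adjusted p = 0.0886 and 0.801). Dnm1 moved little, to 0.46, while its SE went from 0.091 to 0.15, and Atl2 moved to -0.072. The call of Atl2 was also lost without scrambled array 2, scrambled array 3 or Sox2 shRNA array 3.

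Several members lie side by side on their chromosomes. Igtp and Irgm2 are adjacent among protein-coding genes in the RefSeq order, and Gbp3 and Gbp2 have 1 such gene between them, Gbp2b. Irgm1 and Ifi47 have 7 between them, of which 1 was measured, Gm12185 (0.040, limma adjusted p = 0.817). Tgtp1 and Tgtp2, which are on the list of other interferon-inducible GTPases, are also among the 7. The nearest measured gene beyond Irgm2, Zfp672, fell by 1.01 on the log2 scale (limma adjusted p = 1.3e-04). Beyond Gbp2, the nearest measured gene, Kyat3, was not called (0.083, limma adjusted p = 0.462). The next, the general transcription factor gene Gtf2b, fell by 0.74 (limma adjusted p = 8.3e-04). Zfp672 and Gtf2b were picked for mention after their values were seen. Over the 12 measured neighbours that are in neither GTPase list, 2 were called higher, 5 lower and 5 not at all. Their range was -1.01 to 0.38, and of all genes 16.8% were called higher and 21.8% lower. Without scrambled array 1 or 2 the number called higher was 1, and without scrambled array 3 it was 0. Zfp672 and Gtf2b were the called neighbours that kept their calls under the spike-in covariate.

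**Figure D4:**
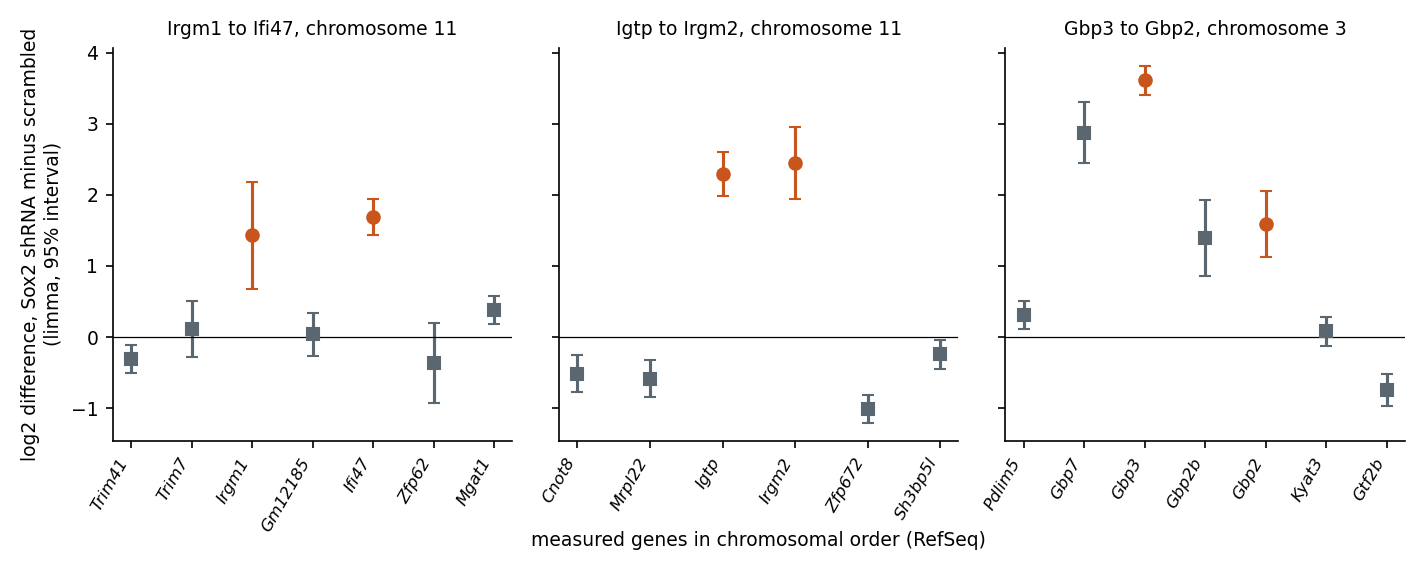
Log2 difference, Sox2 shRNA minus scrambled (y axis), of members and their measured neighbours in RefSeq gene order (x axis), with bars for the 95% interval of limma and the members as orange circles. The members, Gbp7 and Gbp2b stand at 1.39 or higher, and the neighbours in neither GTPase list lie between -1.01 and 0.38. Neighbours were sorted by list alone, and whether Gm12185 (0.040) belongs to the GTPase family was not tested.

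Of 8 measured interferon ligand genes 1 was called higher, Ifna1 (0.33 ± 0.10, limma adjusted p = 0.0355), where 16.8% of all genes were. The median of the 8 was 0.19. The Ifna1 call was lost without scrambled array 1, scrambled array 2, Sox2 shRNA array 2 or Sox2 shRNA array 3. It was also lost with the probe set of highest mean or of largest variance per gene. Without Sox2 shRNA array 3 another ligand gene, Ifnab, was called in its place (0.33, limma adjusted p = 0.0319). Without _x_at and _s_at probe sets Ifna1 was no longer measured, and 0 of the 5 ligand genes left were called higher. How far the Ifna1 probe set also reads related genes was not tested. Ifng, the main inducer of IRGs, differed by 0.046 (limma adjusted p = 0.712). Ifnb1 measured 1.11, -0.020 and 0.12 on the Sox2 shRNA arrays, so that array 1 alone stood out, and it was not called (limma adjusted p = 0.276).

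Receptor subunits and their kinases moved in both directions. Of 8 measured, 3 were called higher and 2 lower, with a median of -0.21, where 16.8% and 21.8% of all genes were. Ifngr2, the signalling chain of the interferon gamma receptor, rose by 0.87 ± 0.13 (limma adjusted p = 0.0014), while the ligand-binding chain Ifngr1 fell by 0.51 (SE 0.098, limma adjusted p = 0.0052). Il10rb, a chain shared by the receptors for IL-10 and for lambda interferons, rose by 0.95 ± 0.11 (limma adjusted p = 5.9e-04). The kinase Jak1 fell by 0.69 (SE 0.12, limma adjusted p = 0.0038), and Ifnar2 rose by 0.58 ± 0.17 (limma adjusted p = 0.029). With the spike-in covariate the calls of Jak1 (-0.30, limma adjusted p = 0.203), Ifngr1 (-0.46, limma adjusted p = 0.114) and Ifngr2 (0.71, limma adjusted p = 0.0671) were lost. Ifnar2 lost its call when single arrays were left out, all but Sox2 shRNA array 1.

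The listed interferon transcription factors were in part higher. Of 10 measured genes, 6 were called higher and 0 lower, beside 16.8% and 21.8% of all genes. Their median was 0.37, and without scrambled array 3 the number called higher was 3. Irf7, the amplifier of type I interferon output, measured -0.025, -0.23 and 0.032 against 1.99, 2.42 and 2.28, a rise of 2.30 ± 0.13 (limma adjusted p = 1.9e-05). Irf9, the DNA-binding subunit of the type I complex, rose by 1.49 ± 0.21 (limma adjusted p = 0.0014), and Irf1, itself induced by interferon gamma, by 0.57 ± 0.11 (limma adjusted p = 0.0057). These 3 kept their calls with the spike-in covariate, and Stat2 (0.44), Irf2 (0.43) and Irf8 (0.31) did not. Without scrambled array 3 these last calls were also lost, as were Irf2 without scrambled array 2 or Sox2 shRNA array 2 and Irf8 without scrambled array 1, scrambled array 2 or Sox2 shRNA array 3. Irf3 (0.26), Irf5 (0.22), Ciita (0.054) and Batf2 (0.0068) were not called, though Irf3 was without Sox2 shRNA array 3 and Irf5 without Sox2 shRNA array 1.

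Of 7 inhibitors of interferon signalling 2 were called higher and 1 lower, with a median of 0.17, beside 16.8% and 21.8% of all genes. Usp18, which blocks the type I receptor and is itself induced by interferon, measured -0.070, -0.14 and 0.092 on the scrambled arrays against 4.22, 4.90 and 4.87 on the Sox2 shRNA arrays, and rose by 4.71 ± 0.18 (limma adjusted p = 2.9e-06). Socs3, known mainly as a brake on IL-6 family cytokines, rose by 0.87 ± 0.12 (limma adjusted p = 0.0011). Socs1, the brake on interferon gamma signalling, was not called at 0.32 ± 0.12 (limma adjusted p = 0.069), but was without Sox2 shRNA array 3. Pias1 was called lower at -0.26, and that call was lost with the spike-in covariate and without scrambled array 1, 2 or 3 or Sox2 shRNA array 2.

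The partners that bring IRGs and GBPs to a vacuole, and the proteins that act after them, were called in both directions. Of 19 measured, 4 were called higher and 5 lower, near the shares of 16.8% and 21.8% over all genes, and the median was -0.080. The ubiquitin ligase Trim21 rose by 0.75 ± 0.080 (limma adjusted p = 3.5e-04). Casp4, the caspase of cytosolic lipopolysaccharide sensing to which GBPs give access, rose by 1.36 ± 0.15 (limma adjusted p = 4.3e-04). Gabarapl1, a ubiquitin-like protein of the autophagy machinery that places the GTPases, fell by 0.87 (SE 0.093, limma adjusted p = 3.6e-04). Without scrambled array 2 the number called higher was 2.

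**Figure D5:**
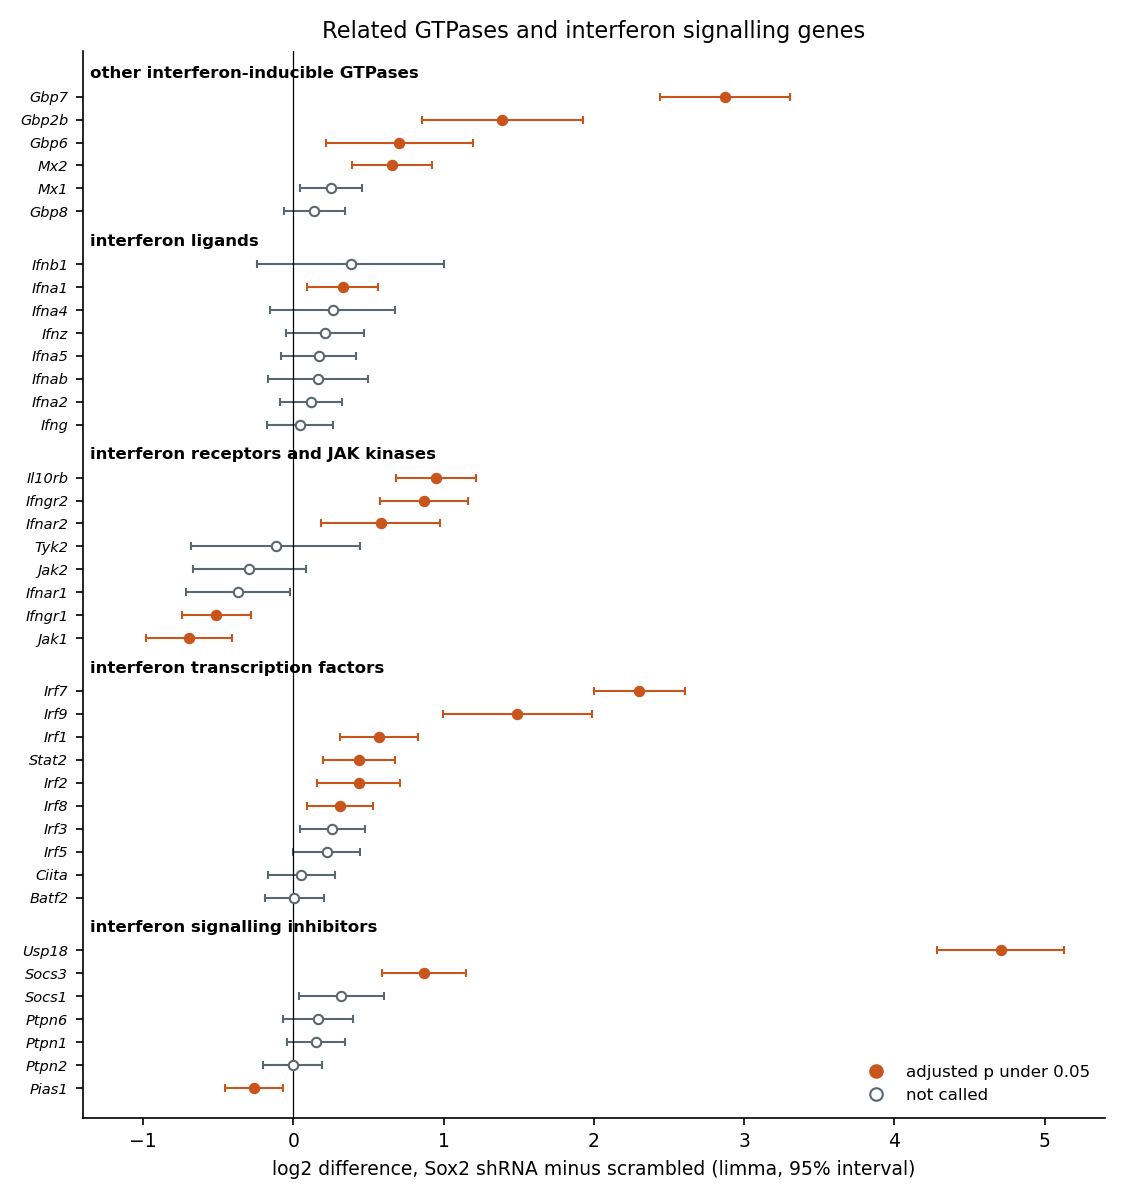
Log2 difference, Sox2 shRNA minus scrambled (x axis), of the other interferon-inducible GTPases, ligands, receptors and kinases, transcription factors and inhibitors described above, with bars for the 95% interval of limma and filled points for an adjusted p under 0.05. Values run from -0.69 for Jak1 to 4.71 for Usp18, with the ligands between 0.046 and 0.38.

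The genes most like the mean of the 7 members over the 6 arrays were found by root mean square distance among 12929 genes. The mean of the members was -0.046, -0.016 and 0.069 on the scrambled arrays and 1.90, 2.03 and 2.39 on the Sox2 shRNA arrays. Nearest was Lpl, lipoprotein lipase, at a distance of 0.114 log2 units (r = 0.997 over 6 arrays), with 1.93, 1.96 and 2.17 on the Sox2 shRNA arrays. It was followed by Prkra (0.145), an activator of the kinase PKR, then Nipsnap1 (0.160), Cxcl10 (0.161) and Sema3c (0.168). Cxcl10 encodes a chemokine induced by interferon gamma, and its difference was 2.03. With 2 groups of 3 arrays, this likeness mostly restates a difference of similar size, since all 5 genes differed by 2.00 to 2.27.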

How the data were processed

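RNA of 6 cultures was hybridised to 1-colour arrays, 1 array per culture, and the submitters' processing notes name GCOS 1.4 and RMA. The sources used here state neither RMA settings nor log base, and the deposited values were taken as log2 because RMA returns that scale. Both deposited tables held the same values (0 cells differed). The deposited log2 values were centred per probe set near the scrambled arrays, as the values show (scrambled array 2 is exactly 0 in 37.5% of probe sets), so levels and signal over background are unknown. Precision is limited by the number of arrays.

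Of 22690 probe sets, 578 name several genes, 543 name none and 21569 name 1 gene. Of the last, 13 were array controls, which left 21556. Entrez numbers matched 21181 to RefSeq, which updated 1735 symbols (Gbp7 was named Gbp6 in the deposited table, Gbp6 was Mpa2l and Gbp2b was Gbp1). Probe sets of a gene were averaged. Groups were compared with limma 3.58.1 (R 4.3.3) on all 6 arrays, with no covariate. P-values were adjusted by the Benjamini-Hochberg method over all genes, or all probe sets, at a threshold of 0.05. Spike-in means were compared with an exact permutation test. The genes named were the members, Sox2, the genes of the interferon lists, the 3 smallest adjusted p of longer lists and the 5 nearest profiles. Marker genes and neighbours in gene order were named besides, and other names are marked as chosen after their values were seen. The list of interferon transcription factors is given without 1 gene that is not reported here. The members and lists were chosen with earlier results of these data known. Alternatives were a replicate block, array median centring, other probe set rules, another variance model, array weights, spike-in covariates (the hybridisation controls alone were added after seeing the data), other thresholds and each array left out in turn. The code was tested on simulated data. Figures were drawn with matplotlib 3.10.9.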

Additional observations from a re-analysis of the deposited data

How the results depend on the processing

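The 7 member genes were called higher under every alternative at the 0.05 threshold, the largest adjusted p being 0.0466 for Irgm1, and 6 remained at 0.01. Their median of 1.68 was 2.27 with the probe set of highest mean or of largest variance, 2.71 with the spike-in covariate, 2.64 with the hybridisation controls alone, and 1.62 to 1.86 with arrays left out. As values were centred near the scrambled arrays, the highest-mean rule favours probe sets that rise on the Sox2 shRNA arrays. The largest-variance rule favours those that differ in either direction. The labels do not say whether replicate numbers pair the arrays. After the group mean of each gene was subtracted, same-numbered arrays correlated at 0.116, -0.025 and 0.170 over all genes. Not every array correlated best with its own number. With so few arrays these correlations cannot exclude pairing. With the replicate block 7 member genes were still higher, Irf8 (adjusted p = 0.0531) and Pias1 (0.0660) lost their calls, so that inhibitors lower went from 1 to 0, and Gabarap (0.0291) and Gabarapl2 (0.0407) gained calls as lower.

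Other counts moved as follows, and the cause was not tested. With either spike-in covariate, the other interferon-inducible GTPases higher fell to 2, the dynamin list to 0 higher and 0 lower, the receptor list to 0 lower, the transcription factors to 3 higher and the inhibitors to 0 lower. Requiring a log2 difference of at least 1 left 2 of the other GTPases, 0 dynamins in either direction, 0 ligands, 0 receptors in either direction, 2 transcription factors, 1 inhibitor higher and 0 lower, and 1 partner higher and 0 lower. At an adjusted p under 0.01 there were 0 ligands, 3 transcription factors, 0 dynamins lower and 0 inhibitors lower. The highest-mean rule, which favours rises, gave dynamins 2 higher and 0 lower, receptors 1 lower, and inhibitors 4 higher and 0 lower. The largest-variance rule gave dynamins 2 higher and 3 lower and inhibitors 4 higher. Dynamins lower were 2 under median centring, array weights or without _x_at and _s_at probe sets. The ligands called higher went to 0 under median centring and under both probe set rules. They were also 0 without _x_at and _s_at probe sets, where Ifna1 was no longer measured. Array weights gave 8 partners lower. With arrays left out, dynamins lower ran from 0 to 2, ligands higher from 0 to 1, transcription factors higher from 3 (without scrambled array 3) to 7, inhibitors lower from 0 to 1, partners higher from 2 to 4 and member probe sets higher from 8 to 9.

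Marker counts moved too. With either spike-in covariate, macrophage markers were 1 higher and 0 lower, lymphocyte markers 0 higher and mesenchyme markers 0 lower, and the block gave 2 lymphocyte and 1 endothelial markers higher.

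Of 100 genes followed singly, 34 had the other sign under at least 1 alternative, and 29 of these were called neither before nor after the turn. The other 5 were Ptpn2, at 0.48 under both probe set rules, Map1lc3b, at 0.40 under the highest mean, and, under the spike-in and hybridisation covariates, Sqstm1 (0.83 and 0.82), Adgre1 (-0.015 and -0.0096) and Col1a2 (0.016 and 0.015).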
